A study of Saccharomyces cerevisiae with 12 samples.

Results

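The rapamycin response of H2B WT yeast was taken from 6 of the 12 arrays in the series, 3 of cells treated with rapamycin and 3 of untreated cells. The arrays were chosen by their labelled genotype and agent, and every probe set annotated with 1 Saccharomyces cerevisiae gene was followed, which gave 5498 probe sets for 5449 genes. Rapamycin was given at 200 ng/ml for 30 min to exponential cultures, and the untreated cultures received none. Both groups were the same MATa haploid strain, FY406, in which the hta1-htb1 and hta2-htb2 gene pairs for H2A and H2B are replaced by LEU2 and TRP1 and which also carries mutant alleles of HIS3, LEU2, URA3, TRP1 and LYS2. All H2B in these cells therefore came from a plasmid with a HIS marker, so H2B WT means a plasmid-borne wild type copy and not an untouched genome. The other 6 arrays hold the H2B R95A mutant, in which arginine 95 of H2B is changed to alanine, under the same treatments. The sources do not state whether the 3 replicates were separate cultures, so the p-values measure only the spread between these arrays.

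Rapamycin binds the prolyl isomerase Fpr1, and the complex inhibits TORC1, the kinase complex that couples growth to the supply of nutrients. Active TORC1 keeps the genes for ribosome assembly and ribosomal proteins transcribed, and holds the GATA activators Gln3 and Gat1 away from the genes for poor nitrogen sources. With TORC1 inhibited, yeast is known to shut down ribosome production and to switch on permeases and enzymes that take up and break down alternative nitrogen sources. The comparison asks which transcripts had moved after a short exposure in the strain background in which the H2B mutant was also studied.

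Values are log2 signals after robust multi-array averaging, so a difference of 1 is a 2-fold change, and every difference is given as rapamycin minus untreated. Each probe set was tested with limma, and none passed an adjusted p under 0.05 in either direction (the smallest was 1.00). At an unadjusted p under 0.05, limma gave 46 higher (0.837%) and 189 lower (3.44%) probe sets. Cyber-T, the test named in the methods, called 7 higher (0.127%) and 0 lower after adjustment. Those 7 were MEP2, DAL3, GAP1, DUR3, DAL80, ARO9 and CAN1. The calls below therefore use the study's limits, an unadjusted p of at most 0.01 and at least a 2-fold change, on limma p-values. At these limits 7 probe sets were higher (0.127% of those tested) and 21 were lower (0.382%). The study applied its limits to cyber-T p-values, which gave 18 higher and 84 lower when rerun here. Below, the study's threshold means these limits on limma p-values. Centring the arrays on their spike-in RNA, in place of the deposited scaling, gave 7 higher and 2 lower. The replicate numbers were taken as pairs from the data. A fit with the replicate number as a block gave 15 higher (0.273%) and 35 lower (0.637%), of which 7 and 16 were the same genes as without the block. Its smallest adjusted p was 0.325, or 0.0565 in a paired fit of the 6 arrays alone. All 3 treated arrays lay above all 3 untreated arrays for 218 probe sets (3.97%) and below them for 205 (3.73%). In 3 of 3 replicate pairs, 1290 probe sets were higher (23.5%) and 961 were lower (17.5%). Differences were positive for 3095 of the 5498 probe sets and negative for 2403.

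The count of lower genes moved widely when single arrays were left out of the fit without the replicate block. It was 1 without untreated replicate 2, 2 without treated replicate 2, 3 without treated replicate 3 and 6 without untreated replicate 1. It was 85 without treated replicate 1 and 123 without untreated replicate 3. The count of higher genes was 4 without treated or untreated replicate 2. Leaving out both arrays of replicate 2 left 1 higher and 0 lower, both arrays of replicate 1 left 3 and 28, and both arrays of replicate 3 left 4 and 54. All 28 genes kept their sign in each of these fits. Pair 2 had the widest response, with 156 probe sets higher and 426 lower by at least 2-fold, against 40 and 92 in pair 1 and 25 and 46 in pair 3. Both replicate 1 arrays also stood apart in carbon metabolism, where 24 glucose-repressed genes averaged 10.29 in treated replicate 1 and 10.18 in untreated replicate 1, while the other 4 arrays lay between 7.07 and 7.84. The median signal of the tested probe sets lay between 7.25 and 7.30 on all 6 arrays. The probe sets of a-cell genes averaged 8.25 in treated and 8.28 in untreated replicate 1, against 9.59 to 10.13 on the other 4 arrays. Replicate 1 thus stood apart in the a-cell list too. Those of α-cell genes averaged 4.38 to 4.97 over the 6 arrays. Neither list had a member at the study's threshold. It was met by 0.127% (higher) and 0.382% (lower) of all tested probe sets, so lists of 7 and 4 genes would rarely hold one. All 4 α-cell genes had positive differences, and 6 of the 7 a-cell genes negative ones. The probe set of HTB2, an H2B gene deleted in this strain, read 5.96 to 6.05 in treated and 5.77 to 5.90 in untreated cells, and a part of the similar HTB1 transcript in that signal was not tested. RNA was extracted from whole cultures, where fewer cells of a type and less RNA per cell cannot be told apart.

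The 7 genes higher at the study's threshold were MEP2, DAL3, DUR3, DAL80, CAN1, PTR2 and GDH1, and all 7 belong to lists of nitrogen uptake and use. For each of them every treated array lay above every untreated array. MEP2 (YNL142W), which encodes the high-affinity ammonium permease that also senses ammonium, had the largest change. Its signal was 11.17, 10.82 and 9.31 in treated replicates 1, 2 and 3, against 8.26, 6.18 and 6.37 in untreated cells. The difference was 3.50 ± 1.02 (SE, limma, unadjusted p = 0.0055), an 11.3-fold higher signal. DUR3 (YHL016C), the urea transporter, read 8.26, 8.34 and 6.53 in treated cells, against 5.67, 4.79 and 4.94 in untreated cells. It was higher by 2.58 ± 0.81 (SE, limma, unadjusted p = 0.00879), and treated replicate 3 gave the smallest step of the 3 pairs. PTR2 (YKR093W), which imports dipeptides and tripeptides, read 9.62, 10.74 and 10.05 in treated cells, against 8.17, 9.01 and 8.59 in untreated cells. Its 3 pairs differed by 1.45, 1.73 and 1.47, with a mean difference of 1.55 ± 0.36 (SE, limma, unadjusted p = 0.00125).

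**Figure D1:**
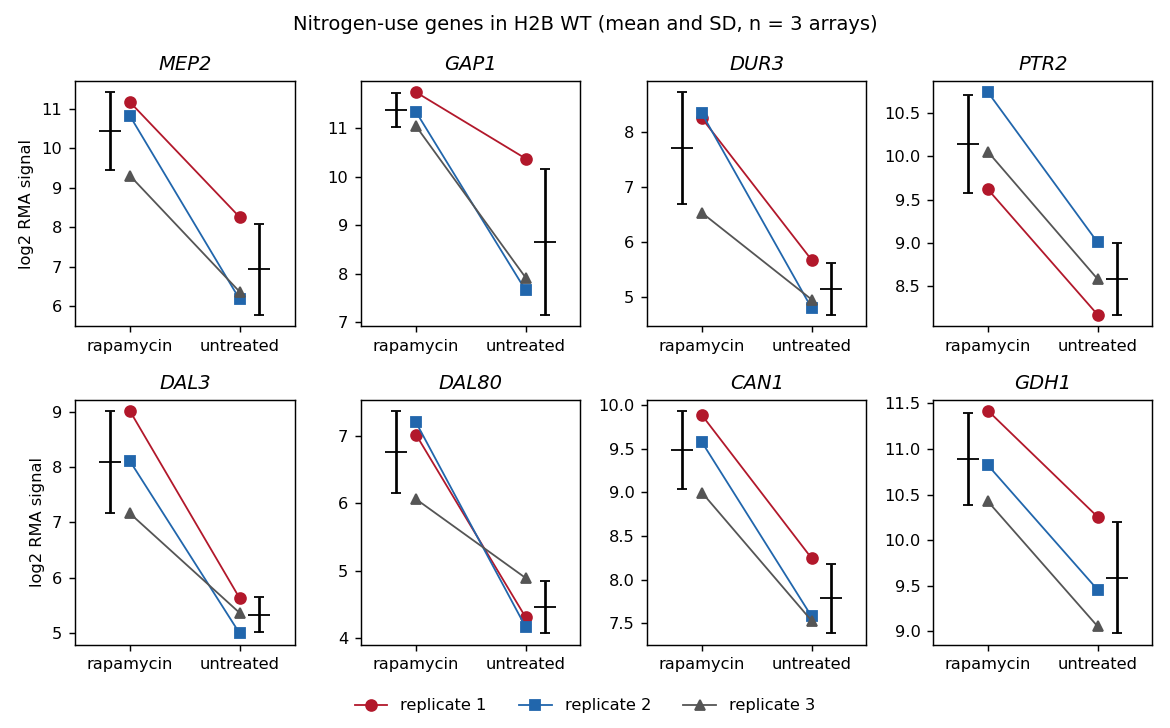
Log2 RMA signal (y axis, scaled separately for each gene) of 8 nitrogen-use genes in H2B WT cells with rapamycin (left) and untreated (right). Lines join arrays of the same replicate number, and black bars give the mean and SD of 3 arrays. Every line falls to the right, and for MEP2 the treated arrays sit between 9.31 and 11.17 and the untreated arrays between 6.18 and 8.26.

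The permeases for ammonium, urea and general nitrogen compounds shared 1 direction. All 11 measured members were higher in 3 of 3 pairs, against 23.5% of all tested probe sets. Their median difference was 1.55 against 0.04 over all tested probe sets, and the pair medians were 1.37, 1.86 and 1.47. GAP1 (YKR039W), the general amino acid permease, read 11.74, 11.34 and 11.04 in treated cells, against 10.37, 7.66 and 7.92 in untreated cells. Its untreated replicate 1 was already high, so that the difference of 2.72 ± 1.00 (SE, limma, unadjusted p = 0.0199) missed the study's threshold without the block and met it with the block (unadjusted p = 0.00289). GAP1 was also past the adjusted cyber-T test (adjusted p = 0.0137). Among the other ammonium permeases, MEP1 (YGR121C) read 9.94, 8.02 and 7.29 in treated cells, against 8.06, 5.16 and 5.68 in untreated cells. The groups overlapped because replicate 1 was high in both, while the pairs differed by 1.88, 2.86 and 1.61 (limma with the replicate block, unadjusted p = 0.000372). MEP3 (YPR138C), the low-affinity member of the family, differed by 0.85 ± 0.61 without the block and gave an unadjusted p = 0.000692 with it (limma), but its change was under 2-fold.

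The remaining permeases of this list differed among themselves. DAL5, the allantoate permease, differed by 1.17 ± 0.52 (SE, limma, unadjusted p = 0.0447), and OPT2, an oligopeptide transporter, by 0.87 ± 0.37 with every treated array above every untreated one. UGA4, the permease for the amino acid GABA, differed by 1.30 ± 0.76, with pair differences of 1.65, 1.84 and 0.40. PUT4 (YOR348C), the proline permease, showed how far replicate 1 could stand apart. Its signal was 10.52, 6.82 and 5.29 in treated cells, against 9.90, 3.98 and 3.62 in untreated cells, so the range between replicates was wider than the difference of 1.71 ± 2.30. DAL4, the allantoin permease, differed by only 0.28 ± 0.35, with a 95% confidence interval of -0.48 to 1.05.

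The GATA factors themselves differed from each other. DAL80 (YKR034W), a GATA repressor that is itself a target of the activators, read 7.02, 7.21 and 6.06 in treated cells, against 4.303, 4.16 and 4.89 in untreated cells. It was 4.98-fold higher, a difference of 2.31 ± 0.58 (SE, limma, unadjusted p = 0.00199). The activators were not past any threshold: GAT1 differed by 0.42 ± 0.53, and its sign turned without treated replicate 1 (-0.06), while GLN3 differed by -0.17 ± 0.22. URE2, whose protein holds Gln3 in the cytoplasm, had pair differences of -0.45, -0.38 and -0.46. They gave an unadjusted p of 0.074 without the replicate block and 0.00405 with it (limma), at a change of 1.35-fold.

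In allantoin breakdown 1 gene met the study's threshold. DAL3 (YIR032C), ureidoglycolate lyase, which releases urea in the last steps of the pathway, read 9.01, 8.11 and 7.16 in treated cells, against 5.63, 5.00 and 5.36 in untreated cells. The difference was 2.76 ± 0.64 (SE, limma, unadjusted p = 0.00119). It lies at one end of a run of DAL genes that are neighbours on the same chromosome. The other members of the run differed less, with DAL7 at 0.77 ± 0.40, DAL2, the allantoicase gene, at 0.74 ± 0.60, and DAL1, the allantoinase gene, at 0.32. DCG1, between DAL2 and DAL7, differed by 0.33, and MGA2, the neighbour beyond DAL3, by 0.18. YVH1, the neighbour beyond DAL1 at the other end, differed by -1.25 (limma, unadjusted p = 0.111). Of the 6 measured genes on the allantoin list, 4 were higher in 3 of 3 pairs, against 23.5% of all tested probe sets. The median difference was 0.53.

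Amino acid permeases had mixed directions. Of 22 measured members and sensors, 11 were higher and 11 lower, with a median of -0.04, and the 2 at the study's threshold lay in opposite directions. CAN1 (YEL063C), the arginine permease, read 9.88, 9.58 and 8.997 in treated cells, against 8.24, 7.58 and 7.53 in untreated cells, a difference of 1.70 ± 0.41 (SE, limma, unadjusted p = 0.00164). MUP1 (YGR055W), the high-affinity methionine permease, read 6.00, 6.14 and 6.35 in treated cells, against 7.04, 7.82 and 8.64 in untreated cells. It was lower by 3.19-fold, a difference of -1.67 ± 0.50 (SE, limma, unadjusted p = 0.00618), and no array of one group reached the other group. DIP5, the permease for glutamate and aspartate, and AGP1, a broad-range amino acid permease, met the study's threshold only with the replicate block. Their differences were 1.83 ± 0.91 and 1.25 ± 0.54 without the block, with limma unadjusted p = 0.00114 and 0.000451 with it. BAP3, a branched-chain amino acid permease, differed by -0.60 ± 0.25, and all of its treated arrays lay below the untreated ones.

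Genes that break down amino acids or make glutamate shared the direction of the nitrogen permeases. GDH1 (YOR375C), the NADP-dependent glutamate dehydrogenase that fixes ammonium, read 11.42, 10.82 and 10.42 in treated cells, against 10.25, 9.45 and 9.05 in untreated cells. Its difference was 1.30 ± 0.40 (SE, limma, unadjusted p = 0.00742), with pair differences of 1.17, 1.37 and 1.37. ARO9 and ARO10, an aminotransferase and a decarboxylase for aromatic amino acids, differed by 2.01 ± 0.74 and 1.76 ± 1.05. Both met the study's threshold with the replicate block (limma unadjusted p = 0.00179 and 0.00118) and not without it, and ARO9 was also past the adjusted cyber-T test (adjusted p = 0.0477). ARO10 had pair differences of 1.71, 1.96 and 1.604, a narrow range beside the SDs of 1.38 over the treated and 1.40 over the untreated arrays. CPS1, a vacuolar carboxypeptidase that releases amino acids from peptides, differed by 0.85 ± 0.29 with no overlap between the groups. Of the 14 measured genes for proline, arginine, GABA and glutamine use, 12 had positive differences and 8 were higher in 3 of 3 pairs. The shares over all tested probe sets were 3095 of 5498 and 23.5%.

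The retrograde list, genes that respond to mitochondrial state and glutamate supply, had a median of 0.15 over 14 measured genes. DLD3, a cytosolic D-lactate dehydrogenase, differed by 1.23 ± 0.47 and met the study's threshold with the block (limma unadjusted p = 0.000895). CIT2 (YCR005C), the peroxisomal citrate synthase used as a reporter of this pathway, read 12.05, 11.53 and 11.14 in treated cells, against 11.93, 10.09 and 9.57 in untreated cells. Its replicate 1 arrays were close to each other and the other pairs differed by 1.43 and 1.57. Taking all nitrogen lists together, 53 of 72 genes had positive differences, 37 were higher in 3 of 3 pairs, and 13 were separated upwards with no overlap. Over all tested probe sets, 3095 of 5498 had positive differences, 23.5% were higher in 3 of 3 pairs and 3.97% were separated upwards. AQY1, an aquaporin gene, was the only one of the 15 higher genes under the block that lay outside these lists, with pair differences of 1.90, 0.36 and 0.74.

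**Figure D2:**
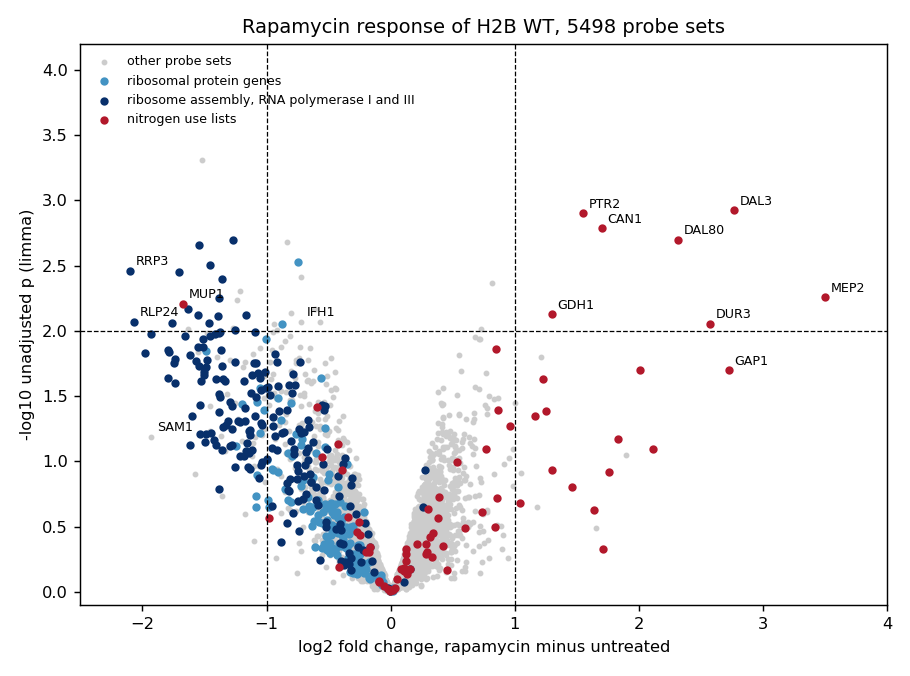
Log2 fold change of rapamycin over untreated (x axis) against -log10 of the unadjusted limma p (y axis) for 5498 probe sets in H2B WT, 3 arrays in each group. Dashed lines mark the study's threshold. The 7 probe sets at the upper right are all on the nitrogen lists (red), and 15 of the 21 at the upper left are on the ribosome assembly and RNA polymerase I and III lists (dark blue).

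Ribosome assembly genes made up most of the lower calls. Over the lists for 40S and 60S assembly, their RNA helicases, snoRNP core proteins and RNA polymerases I and III, 194 of 198 genes had negative differences, with a median of -1.01. Of these, 154 were lower in 3 of 3 pairs, 38 had all treated arrays below all untreated ones, and 15 met the study's threshold. Over all tested probe sets, 2403 of 5498 had negative differences. The shares lower in 3 of 3 pairs, separated downwards and at the threshold were 17.5%, 3.73% and 0.382%. The helicase gene RRP3 (YHR065C), needed for early pre-rRNA processing, had the lowest difference. Its signal was 5.40, 3.55 and 3.85 in treated cells, against 6.70, 7.01 and 5.39 in untreated cells. The difference was -2.10 ± 0.57 (SE, limma, unadjusted p = 0.00344), a 4.28-fold lower signal, although treated replicate 1 and untreated replicate 3 met at nearly the same value. RLP24 (YLR009W), which encodes an assembly factor related to a ribosomal protein of the large subunit, read 5.91, 3.68 and 4.09 in treated cells, against 7.40, 7.01 and 5.47 in untreated cells. It was lower by 4.19-fold with the same overlap.

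Within the small subunit processome, the U3-containing particle that builds the 40S precursor, all 68 measured genes had negative differences, and 55 were lower in 3 of 3 pairs. The median was -1.06, and 6 genes met the study's threshold. Over all tested probe sets, 17.5% were lower in 3 of 3 pairs and 0.382% were lower at the threshold. SOF1 (YLL011W), a U3-associated protein gene, read 5.17, 4.02 and 3.95 in treated cells, against 7.004, 6.71 and 4.71 in untreated cells, a difference of -1.76 ± 0.56 (SE). ESF2 (YNR054C), another assembly factor of the 18S rRNA pathway, differed by -1.71 ± 0.46, with no overlap between the groups. RCL1 (YOL010W), which is needed for cleavage of the 18S precursor, read 4.84, 4.13 and 4.59 in treated cells, against 6.60, 6.38 and 5.19 in untreated cells. Its treated arrays were tightly grouped, and untreated replicate 3 was the closest to them. The other 3 were UTP15 (-1.27 ± 0.32), EMG1 (-1.55 ± 0.48) and BUD23 (-1.46 ± 0.46), of which the last 2 encode methyltransferases that modify 18S rRNA.

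Of the 70 measured 60S assembly genes, 69 had negative differences, and the exception, REA1, encodes the AAA ATPase of late assembly. The median was -1.11, and 54 were lower in 3 of 3 pairs, against 17.5% of all tested probe sets. Besides RLP24, those at the study's threshold were NOP12 (-1.39 ± 0.43), REI1 (-1.38 ± 0.40), RRP17 (-1.46 ± 0.39), RRP8 (-1.25 ± 0.40) and MRT4 (-1.16 ± 0.36). RRP17 encodes a 5′ exonuclease, RRP8 a methyltransferase of 25S rRNA, REI1 a cytoplasmic maturation factor and MRT4 a relative of the ribosomal stalk protein P0. All 5 had treated arrays below every untreated array. Of the snoRNP core proteins, which guide rRNA modification and cleavage, 10 of 11 had negative differences, and RRP9, a U3 protein gene, met the study's threshold at -1.36 ± 0.38. All 19 measured helicase genes had negative differences, with a median of -0.92.

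**Figure D3:**
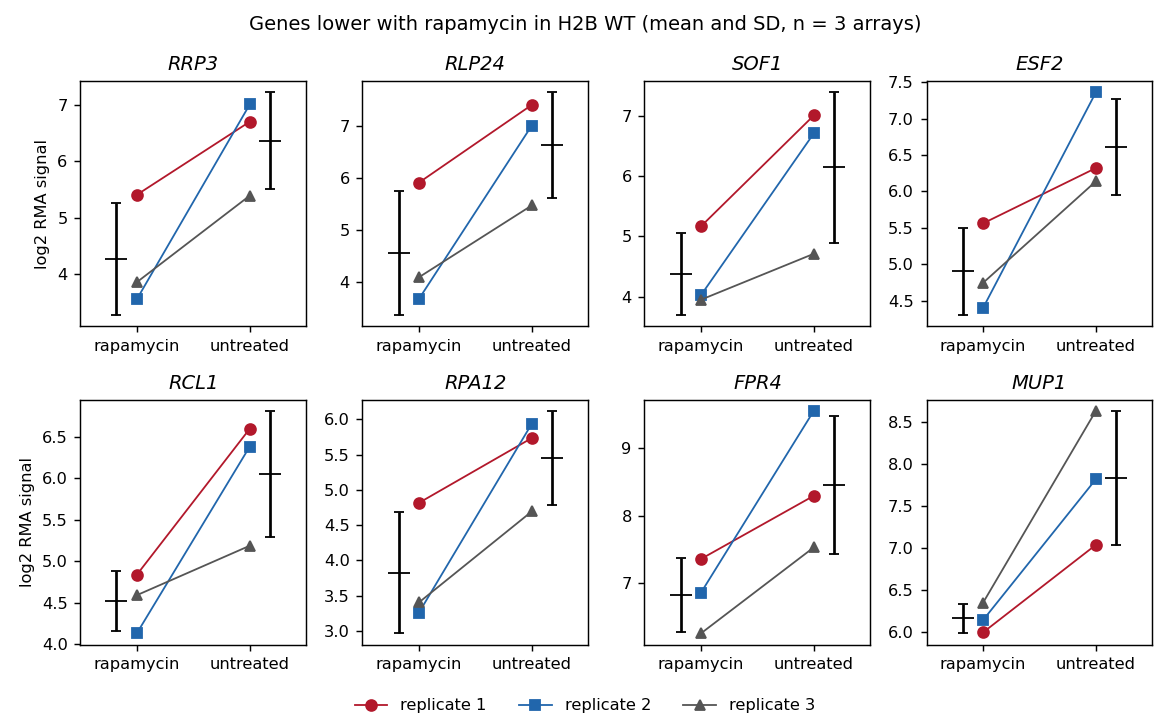
Log2 RMA signal (y axis, scaled separately for each gene) of 8 genes at the study's threshold with lower signals in rapamycin-treated (left) than in untreated (right) H2B WT cells. Lines join arrays of the same replicate number, and black bars give the mean and SD of 3 arrays. Replicate 2 has the steepest line for RRP3, where the pairs differ by -1.30, -3.46 and -1.54, while for MUP1 the steepest is replicate 3.

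RNA polymerases I and III, which transcribe rRNA and tRNA genes, had negative differences for 28 of 30 measured genes and a median of -0.55. RPA12 (YJR063W), a polymerase I subunit gene, read 4.82, 3.26 and 3.40 in treated cells, against 5.74, 5.94 and 4.69 in untreated cells. It was lower by 3.10-fold, a difference of -1.63 ± 0.49 (SE, limma, unadjusted p = 0.00675), and lost the study's threshold with the replicate block (unadjusted p = 0.0106). EMG1, GPN3, RRP8 and MRT4 also met the threshold only without the block, with blocked unadjusted limma p-values between 0.0102 and 0.0139. The 6 genes at the threshold outside the ribosome lists were MUP1, ATC1, FPR4, PRS4, TRM8 and GPN3. ATC1 (YDR184C) read 5.04, 4.45 and 4.65 in treated cells, against 6.29, 6.53 and 5.87 in untreated cells, and had the smallest p of all 28 genes (limma, unadjusted p = 0.000485). FPR4, a nuclear prolyl isomerase of the same family as the rapamycin receptor, differed by -1.63 ± 0.52. PRS4, which encodes a synthetase of the nucleotide precursor PRPP, differed by -1.21 ± 0.35, TRM8, a tRNA methyltransferase subunit gene, by -1.24 ± 0.36, and GPN3, a GTPase gene for RNA polymerase assembly, by -1.27 ± 0.41.

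Most of these calls were lost when single arrays were left out. These fits had no replicate block and kept the other array of the same number, so fewer arrays and an unmatched replicate both enter them. DAL3, DAL80, CAN1, PTR2 and ATC1 stayed at the study's threshold without any 1 of the 6 arrays, and UTP15 lost it without untreated replicate 2. The other 22 genes each lost it in 3 or more of the 6 fits, although none changed sign. MEP2 lost it without either replicate 2 array, without treated replicate 1 and without untreated replicate 3, with differences between 3.12 and 4.16 over the 6 fits. RRP3 lost it without untreated replicate 1 or 2 or treated replicate 2 or 3, with differences between -2.67 and -1.74.

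Ribosomal protein genes had smaller differences than the assembly factors in these arrays. The median was -0.47 over 76 large subunit genes and -0.43 over 53 small subunit genes, and 75 and 52 of them had negative differences. Against 0.382% of all tested probe sets lower at the study's threshold, none of these genes met it without the block. With it, RPL36A (-1.003 ± 0.33, limma unadjusted p = 0.00978) and RPS27A (-1.02 ± 0.44, limma unadjusted p = 0.0055) did. The lowest difference of either list was that of RPL27B, which read 7.40, 6.33 and 6.52 in treated cells, against 8.42, 9.11 and 7.19 in untreated cells (-1.49 ± 0.51). Most ribosomal protein genes have a nearly identical copy, and a probe set may take signal from both. The pair medians of the large subunit list were -0.41, -0.98 and -0.01, so pair 3 showed hardly any difference. In pair 3 the list averaged 8.65 with rapamycin and 8.67 without it, while untreated replicates 1 and 2 averaged 9.49 and 9.98.

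The assembly factors had the same order of pairs. The small subunit processome list averaged 5.89, 4.81 and 5.07 in treated replicates 1, 2 and 3, against 6.73, 6.71 and 5.48 in untreated cells. Untreated replicate 3 was thus the lowest of the untreated arrays, and treated replicate 1 the highest of the treated ones. The pair medians of that list were -0.85, -1.94 and -0.40, and those of the 60S list -0.90, -1.96 and -0.33. The nitrogen permeases also had their largest difference in pair 2, with pair medians of 1.37, 1.86 and 1.47. Their pair means were 1.39, 2.34 and 1.35, so pairs 1 and 3 lay close together by either summary. Genes for tRNA synthetases and translation factors had a median of -0.34 over 48 genes, with pair medians of -0.20, -0.76 and -0.06. Mitochondrial ribosomal proteins had a median of -0.12 over 68 genes.

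**Figure D4:**
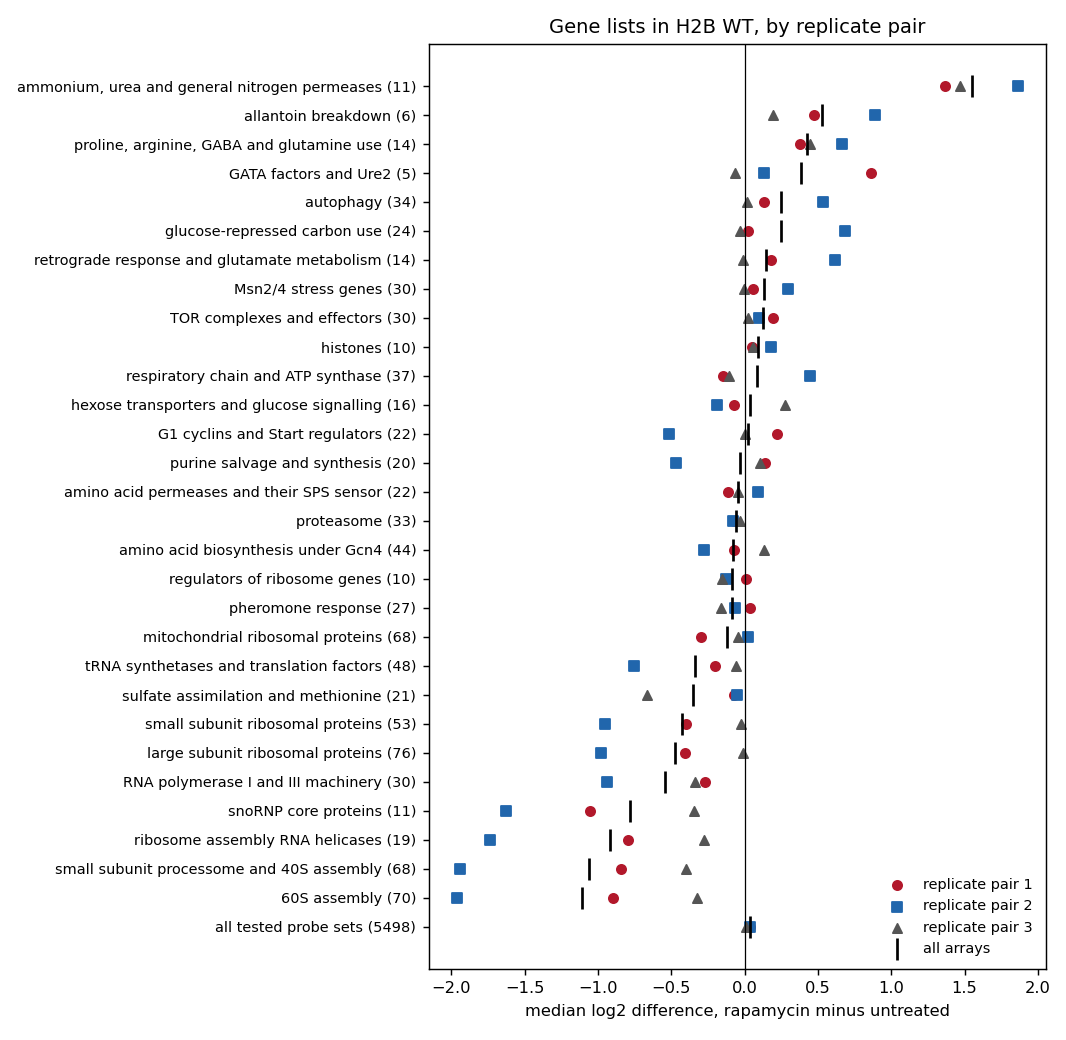
Median log2 difference of rapamycin minus untreated (x axis) for 29 gene lists and for all tested probe sets in H2B WT, with the number of measured genes or probe sets in brackets. Coloured symbols give the medians of the 3 replicate pairs and black bars the median over all arrays. The nitrogen permeases lie at 1.37 to 1.86 in every pair, while the 60S assembly list spreads between -1.96 and -0.33.

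Among the known regulators of ribosome genes, IFH1 (YLR223C), the coactivator of ribosomal protein genes, read 6.07, 5.58 and 5.85 in treated cells, against 6.56, 6.60 and 6.50 in untreated cells. The difference of -0.72 ± 0.23 (SE, limma, unadjusted p = 0.0085) was under 2-fold, and the groups did not overlap. TOD6, a repressor of ribosome assembly genes, differed by -0.72 ± 0.33, with its treated arrays below the untreated ones as well. The list of 10 regulators as a whole had a median of -0.08.

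Sulfur metabolism showed a different pattern across replicates. SAM1 (YLR180W), which encodes an S-adenosylmethionine synthetase, read 5.35, 5.61 and 5.83 in treated cells, against 5.68, 8.10 and 8.79 in untreated cells. Untreated replicate 1 was thus as low as the treated arrays, and the difference was -1.93 ± 0.94 (SE, limma, unadjusted p = 0.0646, or 0.00763 with the replicate block). MET17 and CYS3, enzymes that make homocysteine and cysteine, differed by -1.06 ± 0.61 and -1.10 ± 1.28 and met the study's threshold only with the block (limma unadjusted p = 0.00276 and 0.000748). The pair differences of MUP1 were -1.05, -1.68 and -2.29, in the same order over the pairs as for SAM1, where they were -0.33, -2.49 and -2.96. The sulfate and methionine list had a median of -0.35 over 21 genes, with pair medians of -0.07, -0.05 and -0.67.

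Other pathways known to lie downstream of TORC1 had small differences at this time. No gene of the Msn2/4 stress list was at an unadjusted p under 0.05 in limma, and 25 of 30 had positive differences with a median of 0.13. This list was already bright in untreated cells, at means of 10.66, 10.98 and 11.38 against 7.30, 7.29 and 7.28 over all tested probe sets. Whether such signals left room for a rise was not tested. The autophagy list had 32 of 34 genes with positive differences, a median of 0.25 and no gene at the study's threshold. For comparison with both lists, 3095 of all 5498 probe sets had positive differences, with a median of 0.04. Of all probe sets, 0.837% were higher at an unadjusted p under 0.05 in limma and 0.127% were higher at the study's threshold. The list of Gcn4-controlled amino acid biosynthesis had a median of -0.08, and its HOM3, the aspartate kinase gene, differed by -0.95 ± 0.35. AAH1, the adenine deaminase gene, read 4.95, 3.37 and 3.85 in treated cells, against 5.68, 7.39 and 3.82 in untreated cells, so that its difference of -1.57 ± 0.95 came mostly from pair 2. Glucose-repressed genes had a median of 0.24 and respiratory chain genes one of 0.08.

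The TOR genes themselves, the cell cycle and the pheromone pathway were also read, since the study asked about arrest in G1. Of 30 genes for TOR complexes and effectors, none met the study's threshold. IML1, a subunit gene of the complex that restrains TORC1, was higher in 3 of 3 pairs at 0.42 ± 0.18, with treated arrays of 6.93, 7.10 and 7.04 above untreated arrays of 6.63, 6.55 and 6.60. NPR1, a kinase gene that acts on permeases below TORC1, differed by 0.45 ± 0.22 and TOR1 by 0.41 ± 0.30. The G1 cyclin genes gave differences of 0.08 for CLN1 (95% confidence interval -1.25 to 1.41), -0.19 for CLN2 (-1.04 to 0.66) and -0.08 for CLN3 (-0.57 to 0.42). STE5, the scaffold of the pheromone pathway, differed by -0.09 (-0.65 to 0.48), and FUS3, its MAP kinase gene, by -0.54 (-1.51 to 0.43). These intervals, from the fit without the replicate block, leave room for a 2-fold change of CLN1 in either direction. They also leave room for a 2-fold lower level of CLN2 and of FUS3, but not for a 2-fold change of CLN3 or STE5. The interval of CLN2 only just reaches that far. With the block its standard error was 0.335 in place of 0.386, that of CLN1 0.499 in place of 0.605 and that of FUS3 0.446 in place of 0.440. Intervals were not computed with the block, so the room they would leave was not tested. The pheromone list had a median of -0.09 over 27 genes and the histone list one of 0.09 over 10 genes.

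The same treatment of H2B R95A cells gave 23 higher (0.418%) and 260 lower (4.73%) probe sets at the study's threshold. These counts do not test a difference between strains. That difference, the H2B WT response minus the H2B R95A response, was past an adjusted p under 0.05 in limma for 0 of 5498 probe sets and at an unadjusted p under 0.05 for 8 (0.146%). Of the 28 genes at the threshold in H2B WT, 0 were among those 8. MEP2 differed by 3.50 ± 1.02 in H2B WT and 2.73 ± 1.02 in H2B R95A (SE), and DAL3 by 2.76 ± 0.64 and 2.82 ± 0.64. RRP3 differed by -2.10 ± 0.57 in H2B WT and -2.62 ± 0.57 in H2B R95A, and 20 of the 21 lower genes had a larger difference in H2B R95A. Of the 7 higher genes, 2 had a larger difference in H2B R95A. MUP1 was the exception among the lower genes, at -1.67 ± 0.50 in H2B WT and -0.29 ± 0.50 in H2B R95A, and it had the smallest p for a strain difference among the 28 (limma, unadjusted p = 0.0742). The small subunit processome list had a median of -1.06 in H2B WT and -1.73 in H2B R95A, and the nitrogen permeases 1.55 in H2B WT and 1.39 in H2B R95A.

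**Figure D5:**
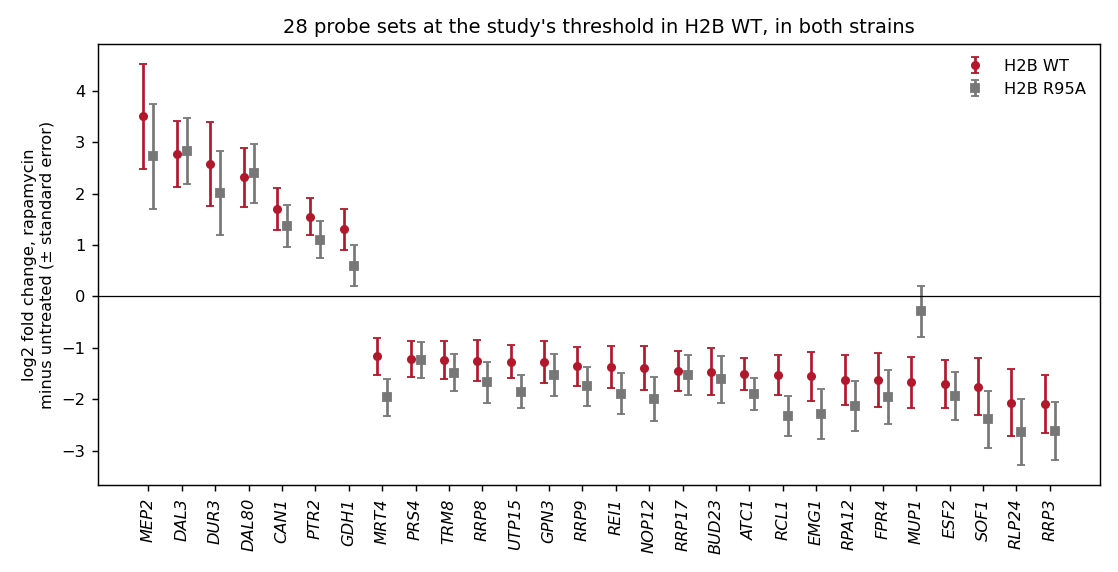
Log2 fold change of rapamycin over untreated (y axis, ± standard error of the 12-array limma fit) for the 28 probe sets at the study's threshold in H2B WT, shown for H2B WT (circles) and H2B R95A (squares), 3 arrays in each group. The genes were chosen by their H2B WT values. The symbols lie close together for DAL3 (2.76 in H2B WT and 2.82 in H2B R95A) and farthest apart for MUP1 (-1.67 and -0.29).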

How the data were processed

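Total RNA was hybridised to 12 Affymetrix Yeast Genome 2.0 arrays, 3 for each of the 2 strains with and without rapamycin. The values deposited by the authors are on the log2 scale and come from RMA in FlexArray 1.6.3, which corrects background and equalises array distributions. This step gives all arrays the same overall distribution, so a shift of all transcripts together would not be seen. Of 10928 probe sets, 5498 annotated with 1 S. cerevisiae gene were tested, of which 128 are marked as shared with similar sequences. The 166 controls, 3517 with no listed gene and 1747 annotated otherwise were left out. Gene neighbours were taken from a RefSeq table (assembly R64).

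Group means were fitted over all 12 arrays with limma 3.58.1 in R 4.3.3, with a variance trend, and p-values were Benjamini-Hochberg adjusted over all tested probe sets. The methods name cyber-T, which was rerun here (window 101, confidence 10), and print the direction of the p limit the other way round from the results text, which was followed. An exact permutation test of 3 against 3 arrays cannot go below p = 0.1 and was not used. Deviations from the group mean correlated at 0.84, 0.41 and 0.77 between treated and untreated arrays of the same number, all above 0.1. The numbers were therefore taken as pairs from the data, since the labels do not say what they stand for. Treated replicate 2 and untreated replicate 3 were also above 0.1, at 0.29, so the pairing of replicate 2 was the least clear. The other unlike numbers gave -0.79 to 0.09. The fit was also run on simulated data with normally distributed noise and large added changes, which does not test calls that rest on single arrays. For each gene with several probe sets, lists used the brightest.

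The members and lists were chosen with earlier results of these data known. Genes named are among the 15 largest changes in each direction at the thresholds, members of lists of up to 15 genes, the 6 largest and 2 smallest changes of each longer list, and TOR, cyclin, pheromone, strain marker and histone genes. AQY1, UTP15, RRP8, MRT4, TRM8, PRS4, GPN3, TRM11, MGA2, YVH1 and DCG1 fall outside that rule and were chosen after their values were seen. Alternatives were the replicate block, 6 arrays alone, leaving out arrays or pairs, cyber-T, no trend, array weights, other scalings, a filter on dim probe sets (log2 under 1.44, set by 1747 Schizosaccharomyces pombe probe sets) and stricter thresholds.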

Additional observations from a re-analysis of the deposited data

How the results depend on the processing

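The count of 0 probe sets past an adjusted p under 0.05 was 7 higher with cyber-T and stayed at 0 in the other alternatives. The counts at the study's threshold moved more. Higher and lower probe sets numbered 15 and 35 with the replicate block over 12 arrays, 21 and 55 with it over 6 arrays, 15 and 26 with it within each strain, 18 and 84 under cyber-T, 11 and 171 when arrays were weighted by quality, 7 and 2 with spike-in centring, 7 and 37 with repeated quantile normalization, and 4 and 2 at a 4-fold limit. With the replicate block and 1 pair left out, they numbered 6 to 11 and 3 to 49. Leaving out 1 array gave 4 to 10 higher and 1 to 123 lower, and leaving out 1 pair gave 1 to 4 and 0 to 54. The differences of all 28 genes kept their sign in every one of these fits. The sign turned for 5 genes with small differences. CLN1 gave -0.25 with array weights, -0.21 and -0.022 with the replicate block without pair 1 or 3, and -0.35 to 0.48 with an array or pair left out. With an array or pair left out, CLN2 gave -0.40 to 0.079, CLN3 -0.29 to 0.11, STE5 -0.24 to 0.012 and GAT1 -0.057 to 0.75. With the replicate block, CLN2 gave 0.079 and CLN3 0.057 without pair 2, and CLN3 gave 0.0056 without pair 3. Spike-in means ranged from 4.45 to 5.31 over the 6 arrays, and centring on them passes that spread to every probe set. With 3 arrays a group, the number of arrays limits the precision.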

Other observations

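Families of RNA enzymes outside the lists above also had lower signals with rapamycin. They were listed after values of single members had been seen, so their counts are a description. Of 32 tRNA modification enzymes, 29 had negative differences, 24 were lower in 3 of 3 pairs against 17.5% of all probe sets, and the median was -0.64. Only TRM8 met the study's threshold. Of 13 genes for the RNA exosome, the complex that trims and degrades RNA from the 3′ end, and its cofactors, 12 had negative differences, 10 were lower in 3 of 3 pairs and the median was -0.61.

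The probe set with the smallest p for a difference between the strains was that of TRM11, a tRNA methyltransferase subunit gene, whose response was -0.23 ± 0.34 in H2B WT and -1.76 ± 0.34 in H2B R95A (SE, limma, unadjusted p = 0.00813, adjusted p = 1.00).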
